A study of Mus musculus with 6 samples.

Results

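ATF4 is the transcription factor through which cells answer a shortage of amino acids, stress in the endoplasmic reticulum, heme shortage or double-stranded RNA. Each of these is sensed by a kinase that phosphorylates the initiation factor eIF2α, which slows translation of most mRNAs but favors that of *Atf4*. ATF4 protein then raises genes for amino acid synthesis, amino acid uptake and tRNA charging, and, under lasting stress, genes that restrain growth or favor cell death. Macrophages that are activated are known to draw on serine and glycine. Since ATF4 is controlled largely by translation, the level of its mRNA is not the level of its activity.

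Of the 55453 genes in the deposited table, 10 were taken for this account by their symbols: *Atf4* itself, its stress targets *Ddit3*, *Trib3*, *Chac1* and *Sesn2*, the synthesis enzymes *Asns*, *Psat1* and *Phgdh*, and the transporter genes *Slc7a5* and *Slc3a2*. All 10 were counted and all 10 passed the filter on low counts. They were measured by RNA-Seq in bone marrow-derived macrophages (BMDM) of 3 PP2Ac KO and 3 WT libraries, all labelled as C57BL/6. PP2Ac KO cells came from *LysMcre PP2Ac fl/fl* mice, in which *cre*, driven in myeloid cells by the promoter of *Lyz2*, deletes the first exon of *Ppp2ca*, the gene of the catalytic subunit of protein phosphatase 2A. WT cells came from C57BL/6 mice of a commercial supplier, while the floxed mice came from another laboratory, so that the deletion, *cre* and the colony cannot be told apart. Mice in the study were 6 to 10 weeks old and of both sexes, and marrow was cultured for 7 days with M-CSF or with medium conditioned by L929 fibroblasts, without a statement of which was used here. All 6 libraries were taken as treated with cGAMP, the ligand of STING, at 10 μg/mL for 4 hours. The labels give no treatment, and no untreated libraries were analysed, so values here compare genotypes under that treatment and not the response to it.

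Reads counted on genes numbered 35257156 to 46647682 per PP2Ac KO library and 38235133 to 47390899 per WT library. *Ppp2ca* had 33 to 47 counts in PP2Ac KO and 8279 to 10654 in WT, so the labels hold for the targeted gene. Of 6 macrophage markers, 2 were higher (3 with the replicate number as a block) and none lower, with summed levels of 7286 to 7474 CPM (the counts of a gene scaled to library size) in PP2Ac KO and 6162 to 6794 CPM in WT. The lists of granulocyte, dendritic cell and lymphocyte markers each summed to at most 2.38 CPM in any library. Of their 14 genes 3 passed the filter on low counts and 1, *Clec9a*, was higher, and *Ly6g* had no count in any library. All 4 fibroblast markers were present and lower in PP2Ac KO, with sums of 22.7 to 33.4 CPM against 74.9 to 117.7 CPM in WT. Of 10 proliferation markers, 8 were lower (9 with the block) and none higher. In bulk RNA, fewer cells of a type and less RNA per cell cannot be told apart.

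The ATF4 genes did not move as one. *Ddit3* and *Slc7a5* rose in PP2Ac KO BMDM by 1.63-fold and 1.51-fold, and *Sesn2* rose by 0.26 on the log2 scale. *Psat1* and *Phgdh*, both enzymes of serine synthesis, fell to 0.692 and 0.625 of the WT level. In edgeR's quasi-likelihood test at an adjusted p under 0.05, 3 of the 10 genes were therefore higher and 2 lower, where 18.1% of the 13680 genes tested were higher and 19.0% lower. In a fit with replicate number as a block, 5 were higher and 3 lower, where 24.4% and 26.4% of all genes were. The added genes were *Atf4*, *Slc3a2* and *Asns*. None of the 10 passed a log2 fold change of 1 in either direction with an adjusted p under 0.01, as 6.35% of all genes did. The median log2 fold change of the 10 was 0.19, against -0.02 over all genes tested, and the median size of the change was 0.30 against 0.23. In 5 of the 10 every PP2Ac KO library was above every WT library, and in 3 every one was below, where 24.0% and 26.8% of all genes were so arranged. For a list of 10 these shares are given as a description and not as a result about the list. The counts for each list below are descriptions too, to be read beside the same shares of all genes. The plot of their levels in each library shows them by gene.

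**Figure D1:**
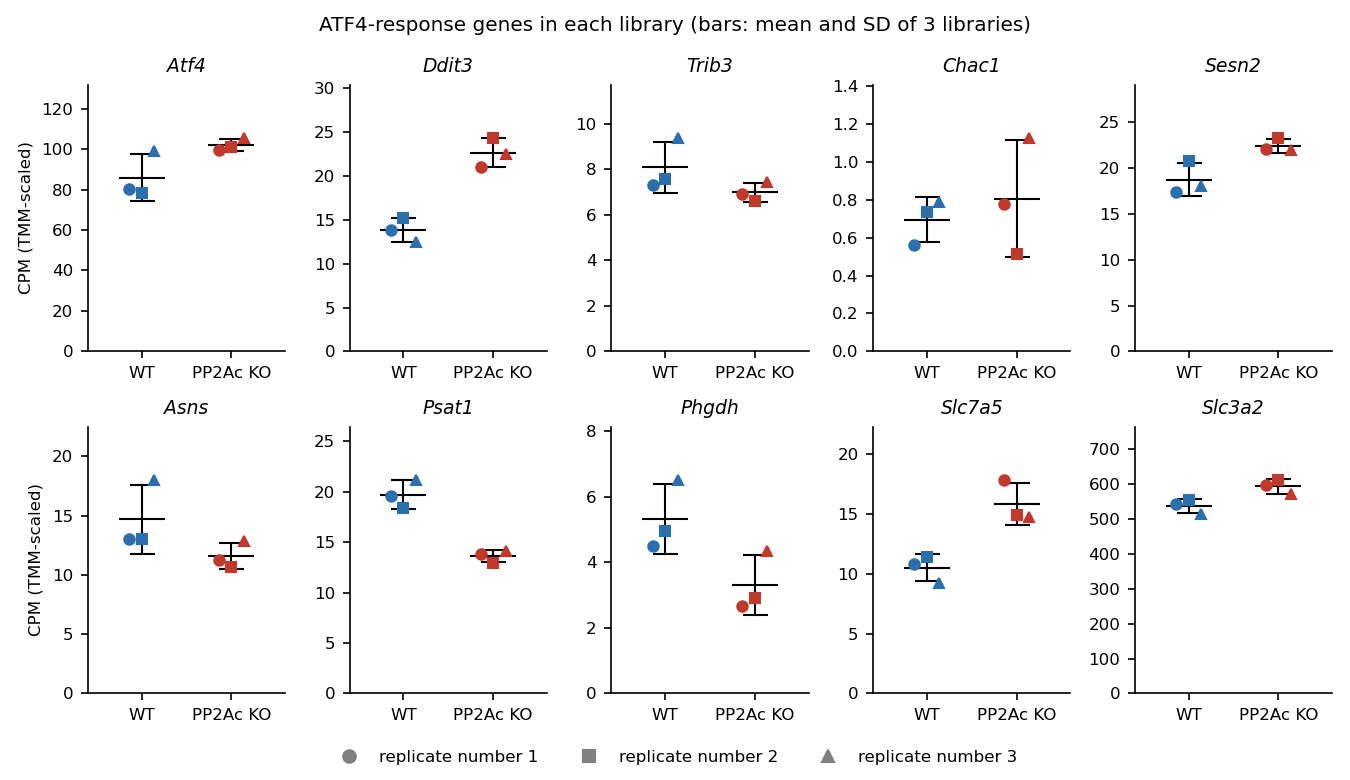
Level of each of the 10 ATF4-response genes in CPM (vertical axes start at 0) in the 3 WT (blue) and 3 PP2Ac KO (red) libraries, with the mean and SD as bars and marker shapes for the replicate number. PP2Ac KO libraries lie above all WT libraries for Atf4, Ddit3, Sesn2, Slc7a5 and Slc3a2, below them for Asns, Psat1 and Phgdh, and among them for Trib3 and Chac1.

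*Atf4* lies on the forward strand at chr15:80255184-80257541 of mm10. It had 99.4, 101 and 106 CPM in PP2Ac KO and 80.4, 78.2 and 99.1 CPM in WT. The groups did not overlap, but the highest WT library came within 1 CPM of the lowest PP2Ac KO library. The log2 fold change was 0.25 (standard error 0.09, 95% interval 0.04 to 0.45, adjusted p = 0.0587), and 0.25 with the block (adjusted p = 0.00242). With single libraries left out it ran from 0.19 to 0.37, the highest being without WT replicate 3 (adjusted p = 0.00340).

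*Ddit3*, at chr10:127290774-127296288 on the forward strand, encodes CHOP, a bZIP factor that ATF4 induces and that favors cell death when stress lasts. It had 21.0, 24.3 and 22.5 CPM in PP2Ac KO against 13.8, 15.2 and 12.5 CPM in WT, so that the lowest PP2Ac KO library was well above the highest WT library. Its log2 fold change of 0.71 (standard error 0.09, 95% interval 0.50 to 0.91, adjusted p = 4.32e-04) was the largest in size among the 10. It kept its direction and stayed under an adjusted p of 0.05 in each of 14 alternative fits. Of its exon length, 68 bases (3.97%) overlap exons of *Mars* on the opposite strand, and the strand setting of the counting is not given in the sources used here. *Mars* itself had a log2 fold change of -0.22 (adjusted p = 0.0659, and 0.00224 with the block).

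*Trib3* and *Chac1* stand downstream of ATF4 and CHOP together. *Trib3*, at chr2:152337422-152344032 on the reverse strand, encodes a pseudokinase that feeds back on ATF4 and CHOP. It had 6.91, 6.60 and 7.43 CPM in PP2Ac KO and 7.33, 7.56 and 9.37 CPM in WT. The groups overlapped, and the log2 fold change was -0.21 (95% interval -0.47 to 0.05, adjusted p = 0.188, and 0.0584 with the block). *Chac1*, at chr2:119351229-119354381 on the forward strand, encodes an enzyme that breaks down glutathione. It was the lowest of the 10, with 17 to 47 counts in PP2Ac KO and 28 to 33 in WT, or 0.806 ± 0.307 CPM and 0.696 ± 0.117 CPM (SD, n = 3). Its log2 fold change of 0.24 had a 95% interval of -0.43 to 0.92 (adjusted p = 0.564) and became -0.072 without PP2Ac KO replicate 3, and that interval includes the change seen for *Ddit3*.

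*Sesn2*, at chr4:132492032-132510501 on the reverse strand, encodes Sestrin 2, a leucine sensor that restrains mTORC1. It had 22.1, 23.3 and 21.9 CPM in PP2Ac KO and 17.4, 20.7 and 18.0 CPM in WT, close but without overlap. The difference was 0.26 on the log2 scale (standard error 0.08, adjusted p = 0.0305, and 0.00256 with the block). The adjusted p exceeded 0.05 under upper-quartile scaling (0.107) and when any library but WT replicate 2 was left out, with log2 fold changes of 0.21 to 0.28 and adjusted p of 0.0568 to 0.111.

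Paralogs of these genes went both ways. *Sesn1*, which is known as a target of p53 and FOXO factors, fell from 24.0 ± 3.27 to 11.1 ± 1.24 CPM (SD over n = 3), which is -1.12 on the log2 scale (adjusted p = 1.77e-04). *Sesn3*, a FOXO target, rose by 0.67 on the log2 scale (adjusted p = 0.0254), although its lowest PP2Ac KO library, at 51.9 CPM, was below the highest WT library, at 52.1 CPM. The pseudokinase gene *Trib1*, a paralog of *Trib3*, rose from 24.2 ± 2.21 to 42.4 ± 4.04 CPM, a log2 fold change of 0.81 (adjusted p = 2.48e-04). *Chac2* had a log2 fold change of 0.35 (adjusted p = 0.0754, and 0.0422 with the block), and *Trib2* did not pass the filter on low counts. Of the 4 paralogs tested, 2 were thus higher and 1 lower, and 1 was higher with DESeq2 and without PP2Ac KO replicate 1, WT replicate 2 or WT replicate 3.

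The synthesis enzymes lay below WT. *Phgdh* (chr3:98313170-98339990, reverse strand) encodes the dehydrogenase that draws serine synthesis from glycolysis, and *Psat1* (chr19:15904678-15947337, reverse strand) the aminotransferase of the next step. *Psat1* had 13.8, 12.965 and 14.1 CPM in PP2Ac KO and 19.6, 18.3 and 21.2 CPM in WT. The groups were well apart, with a log2 fold change of -0.53 (standard error 0.08, 95% interval -0.70 to -0.36, adjusted p = 8.02e-04). *Phgdh* had 2.66, 2.91 and 4.34 CPM in PP2Ac KO and 4.49, 4.94 and 6.51 CPM in WT. Replicate 3 was the highest in each genotype, and the highest PP2Ac KO library nearly reached the lowest WT library. The log2 fold change was -0.68 (standard error 0.21, 95% interval -1.14 to -0.21, adjusted p = 0.0287, and 2.30e-04 with the block). It ran from -0.93 to -0.51 with single libraries left out, and its adjusted p rose to between 0.0549 and 0.107 without PP2Ac KO replicate 1 or 2 or WT replicate 2 or 3. Of the 2434 windows of 50 bases in *Phgdh* transcripts, 47.8% also occur in transcripts of 20 other annotated genes. The 19 of these in the table had at most 4 counts together in any library, so reads that fit several places may be missing from the count of *Phgdh*, and its level is uncertain. For the other genes the share of such windows was at most 3.42% (*Slc3a2*), and it was 0 for 7 of the 10. *Ddit3* is the symbol of 2 annotated genes, and windows shared between those were not counted.

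*Asns* (chr6:7675169-7693254, reverse strand) encodes asparagine synthetase. It had 11.3, 10.7 and 12.8 CPM in PP2Ac KO and 13.004, 13.01 and 18.0 CPM in WT, without overlap but with a narrow gap. The log2 fold change was -0.34 (standard error 0.14, 95% interval -0.64 to -0.03, adjusted p = 0.0806), and -0.33 with the block (adjusted p = 0.00265). With single libraries left out the log2 fold change ran from -0.42 to -0.16. The adjusted p was 0.0401 without WT replicate 1, and the highest of the 14 alternative fits was 0.255. Together the 3 enzymes summed to 26.5 to 31.3 CPM in PP2Ac KO and 36.3 to 45.7 CPM in WT. Proliferation markers, with sums of 279.5 to 296.3 CPM against 363 to 434 CPM, and the fibroblast markers given above moved in the same direction, and their part in the lower enzyme levels was not tested. The largest part of the proliferation sums was *Pcna*, at 202 against 224 CPM, with a log2 fold change of -0.15 (adjusted p = 0.161). The median log2 fold change of the proliferation markers was -1.08.

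The transporter genes encode a single heterodimer. *Slc7a5* (chr8:121881150-121907694, reverse strand) encodes LAT1, the exchanger of leucine and other large neutral amino acids, and *Slc3a2* (chr19:8706882-8723369, reverse strand) the heavy chain CD98 that carries it to the membrane. *Slc7a5* had 17.9, 14.96 and 14.7 CPM in PP2Ac KO and 10.9, 11.4 and 9.26 CPM in WT, with the groups apart. Its log2 fold change was 0.59 (standard error 0.11, 95% interval 0.35 to 0.83, adjusted p = 0.00232). *Slc3a2* had 598, 612 and 570 CPM in PP2Ac KO and 542.5, 554 and 515 CPM in WT. The log2 fold change was 0.14 (95% interval -0.01 to 0.29, adjusted p = 0.123, and 0.0115 with the block), and it became -0.073 when counts were divided by library totals alone.

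**Figure D2:**
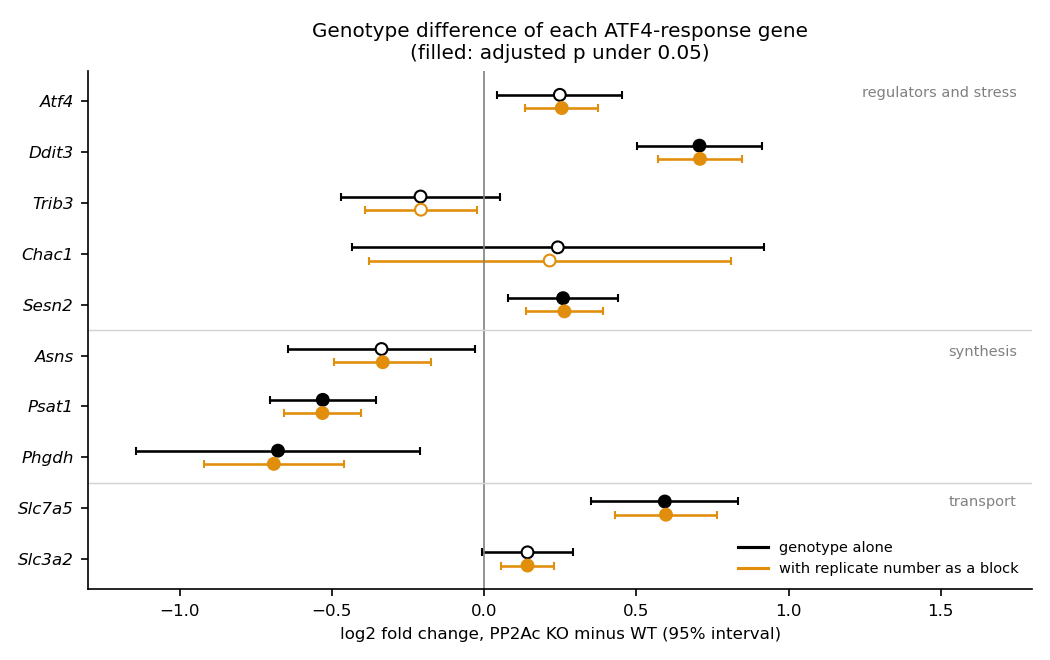
log2 fold change of each ATF4-response gene between PP2Ac KO and WT BMDM (horizontal axis) with its 95% interval, fitted for genotype alone (black) and with replicate number as a blocking term (orange), with filled points at an adjusted p under 0.05. Ddit3 at 0.71 and Slc7a5 at 0.59 lie to the right of 0 and Psat1 at -0.53 and Phgdh at -0.68 to the left in both fits, while the interval of Chac1 spans 0 widely.

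Scaling bears on differences of this size. TMM factors were 0.910 to 0.937 in PP2Ac KO and 1.05 to 1.10 in WT, and with library totals alone, a setting added after the data were examined, the median over all genes moved from -0.02 to -0.24 (log2). *Ddit3* (0.49), *Slc7a5* (0.38), *Atf4* (0.03), *Sesn2* (0.04) and *Slc3a2* (-0.07) lay above that shifted median. *Psat1* (-0.75), *Phgdh* (-0.89) and *Asns* (-0.56) lay below it. Each gene and the median move by nearly the same amount with the scaling, so these places were fixed beforehand and are no check. Ratios of counts within a library need no scaling. They were computed for 4 pairs of genes chosen after the values were seen. The log2 ratio of *Psat1* to *Ddit3* was -0.61, -0.91 and -0.67 in PP2Ac KO and 0.51, 0.27 and 0.76 in WT, so that the ratio in PP2Ac KO was 0.423 of that in WT. The ratio of *Asns* to *Atf4* was 0.667 of that in WT, with log2 values of -3.14 ± 0.102 and -2.56 ± 0.0876 (SD, n = 3). The ratio of *Slc7a5* to *Slc3a2* was 1.37 times that in WT, with log2 values of -5.23 ± 0.149 and -5.68 ± 0.104. The groups did not overlap in any of these ratios, for which the 2-sided exact permutation test gave p = 0.1, the smallest that 3 against 3 libraries allow. For *Psat1* to *Ddit3* and *Asns* to *Atf4* this followed from the choice of pairs. In each, every PP2Ac KO library was below every WT library for the first gene and above for the second. The ratios describe the size of the differences, and their p-values are no further support.

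Levels can be compared between genes only per length of exon, as RPKM (CPM per kilobase of exon in GENCODE M21). In WT, *Slc3a2* was first at 152 ± 5.67 RPKM (SD, n = 3), followed by *Atf4* at 36.4 ± 4.87 and *Ddit3* at 8.08 ± 0.808. *Sesn2* (5.39 ± 0.511), *Asns* (5.37 ± 1.06), *Psat1* (4.64 ± 0.334) and *Trib3* (3.81 ± 0.527) followed, and each of these overlapped its neighbor in the order. *Slc7a5* (2.83 ± 0.302) and *Phgdh* (2.14 ± 0.427) overlapped as well, and *Chac1* was last at 0.425 ± 0.0715 RPKM. In PP2Ac KO, *Slc7a5* stood at 4.28 ± 0.471 RPKM, level with *Asns* at 4.24 ± 0.407, and *Psat1* at 3.21 ± 0.142 was level with *Trib3* at 3.28 ± 0.196. The heavy chain gene thus had far more RNA than *Slc7a5* in both genotypes.

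CD98 also pairs with other light chains of the SLC7 family, and these differed in direction. *Slc7a8*, which encodes LAT2, a transporter of neutral amino acids, was the most abundant light chain gene at 75.0 ± 7.79 RPKM in WT and 118 ± 12.1 RPKM in PP2Ac KO. It rose from 375 ± 39.0 to 589 ± 60.8 CPM (SD over n = 3), which is 0.65 on the log2 scale (adjusted p = 0.00101). *Slc7a7*, which encodes an exchanger of cationic and neutral amino acids, rose by 0.23 on the log2 scale (adjusted p = 0.0286), and its value was 0.01 with library totals alone. Of its exon bases, 232 overlap exons of *Oxa1l* on the opposite strand, which had 1164 to 1777 counts, and the strand setting is not given. *Slc7a11*, which encodes the cystine importer xCT and is a known target of ATF4 and NRF2, had 23.2, 19.2 and 21.5 CPM in PP2Ac KO and 34.5, 27.5 and 37.0 CPM in WT, a log2 fold change of -0.63 (adjusted p = 0.00243). *Slc7a6* fell by 0.49 on the log2 scale (adjusted p = 0.00656). Within libraries, the ratio of *Slc7a11* to *Slc7a8* counts in PP2Ac KO was 0.413 of that in WT (2-sided exact permutation p = 0.1), with no overlap between groups. The choice of this pair fixed that too, since every PP2Ac KO library was below WT for *Slc7a11* and above it for *Slc7a8*.

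**Figure D3:**
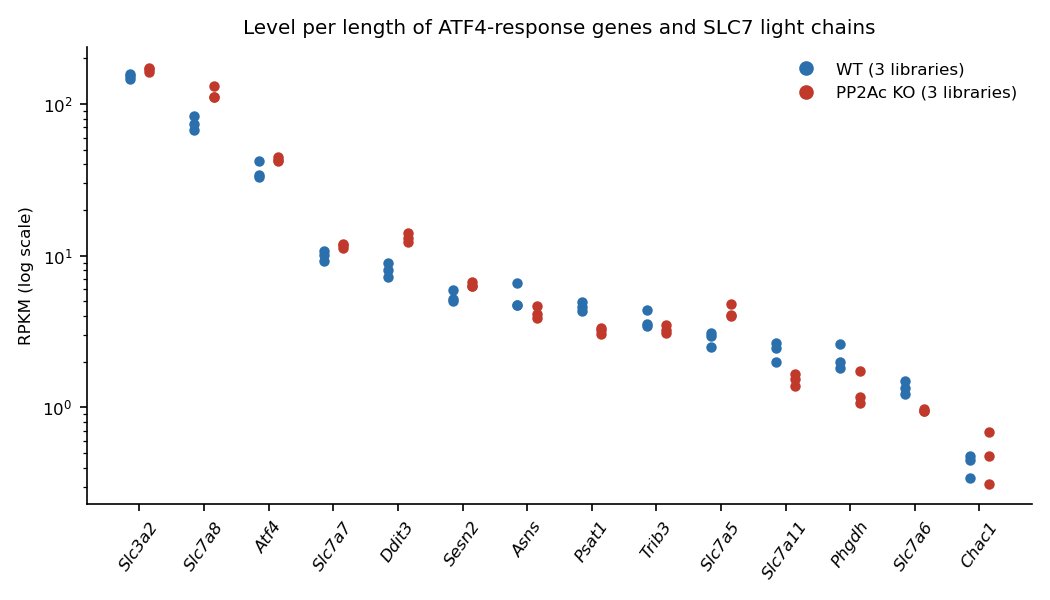
RPKM (logarithmic vertical axis) of the 10 ATF4-response genes and 4 other light chain genes of the SLC7 family in the 3 WT (blue) and 3 PP2Ac KO (red) libraries, in the order of their WT means. Slc3a2 at 152 RPKM in WT is followed by Slc7a8 at 75.0, and Chac1 is last at 0.425.

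The element through which ATF4 and its C/EBP partners are known to act, the C/EBP-ATF response element, has the core TGATGNAA. It was searched on both strands of RefSeq promoter windows of GRCm38.p6, each from 250 bases before a transcription start to 50 bases after it, which matched 9 of the 10 genes (all but *Slc7a5*) with 10 windows. The core was in 3 of the 10 windows, those of *Asns*, *Chac1* and *Trib3*, and in 2.37% of the 12818 windows of genes tested. The windows of *Atf4*, *Ddit3*, *Sesn2*, *Psat1*, *Phgdh* and *Slc3a2* had no match. A match is a description of the sequence only, and elements can lie outside the windows. The matches are printed on the strand of the gene, with the core in capitals, to show how the letters vary between genes. In *Asns* the core reads forward at chr6:7693225-7693232, in the printed stretch chr6:7693214-7693243, and its first base is 23 bases before the RefSeq start, inside the gene as GENCODE M21 gives it. In *Chac1* the core reads in reverse at chr2:119351049-119351056, in the stretch chr2:119351038-119351067, 193 bases before the RefSeq start. In *Trib3* the core reads in reverse at chr2:152344039-152344046, in the stretch chr2:152344028-152344057, 14 bases after the RefSeq start and ahead of the start in GENCODE.
Asns: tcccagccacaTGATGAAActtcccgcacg
Chac1: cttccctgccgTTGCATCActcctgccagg
Trib3: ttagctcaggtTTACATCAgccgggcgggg

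The genes of the kinases ahead of ATF4 went in both directions. *Eif2ak2* encodes PKR, the kinase that double-stranded RNA activates and interferon induces. It rose from 277 ± 60.03 to 481 ± 28.4 CPM (SD over n = 3), which is 0.79 on the log2 scale (adjusted p = 0.00166). *Eif2ak3*, which encodes PERK of the endoplasmic reticulum, had 15.3, 18.4 and 17.3 CPM in PP2Ac KO and 28.5, 29.5 and 29.4 CPM in WT, a log2 fold change of -0.78 (adjusted p = 1.35e-04). *Eif2ak4*, which encodes the amino acid sensor GCN2, fell by 0.36 on the log2 scale (adjusted p = 0.0163). *Eif2ak1*, the gene of the heme-regulated kinase, had 0.05 (adjusted p = 0.547). *Impact*, whose protein inhibits GCN2, fell from 47.2 ± 2.08 to 25.5 ± 2.54 CPM, a log2 fold change of -0.89 (adjusted p = 9.75e-05). *Eif2s1*, the gene of eIF2α itself, rose by 0.42 (adjusted p = 0.00146). In all, 2 of the 12 genes of eIF2α, its kinases and their partners, and the exchange factor eIF2B were higher and 4 lower (5 lower with the block), and the median of the list was -0.12 on the log2 scale, against -0.02 over all genes.

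The phosphatase that reverses eIF2α phosphorylation is PP1 with a targeting subunit. Both targeting subunit genes rose, *Ppp1r15a* (GADD34, itself a stress target) by 0.38 (adjusted p = 0.0260) and *Ppp1r15b* (CReP) by 0.54 (adjusted p = 0.00567) on the log2 scale. *Ppp1r15b* had 365, 313 and 308 CPM in PP2Ac KO and 265, 216 and 195 CPM in WT. Of the PP1 catalytic subunits, *Ppp1cc* fell by 0.27 (adjusted p = 0.0086), and *Ppp1ca* and *Ppp1cb* had log2 fold changes of 0.00 and -0.07 (adjusted p = 0.977 and 0.487). Of these 5 genes, 2 were higher and 1 lower, and 1 was higher without PP2Ac KO replicate 1, WT replicate 2 or WT replicate 3.

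Among 8 genes of bZIP factors that pair with ATF4 or share its sites, 3 were higher and 1 lower. *Cebpb* rose from 239 ± 21.8 to 404 ± 33.6 CPM (SD over n = 3), which is 0.76 on the log2 scale (adjusted p = 3.16e-04), and *Nfe2l2*, the gene of NRF2, by 0.69 (adjusted p = 9.29e-05). *Atf3* rose by 0.32 (adjusted p = 0.00656). *Cebpg*, whose product is an ATF4 partner at amino acid genes, fell by 0.27 (adjusted p = 0.00983). Under upper-quartile scaling, with no filter on low counts and without WT replicate 1, 2 were lower. With the block 4 were higher and 3 lower, the added lower genes being *Atf5* (adjusted p = 0.139 without the block) and *Nfe2l1*.

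Of 5 tested genes in the list of other amino acid synthesis, outside the serine pathway, 4 were lower and none higher. Their median was -0.40 on the log2 scale, against -0.02 over all genes. The remaining gene, *Got1* (aspartate aminotransferase), had 0.18 (adjusted p = 0.144) and was higher with the block (adjusted p = 0.0186). *Pck2*, which encodes the mitochondrial PEP carboxykinase and not an enzyme of amino acid synthesis itself, fell by 0.81 (adjusted p = 0.00246). *Glul* (glutamine synthetase) fell by 0.56 (adjusted p = 7.81e-04) and *Aldh18a1* (the entry to proline synthesis) by 0.40 (adjusted p = 0.0122). *Pycr1*, *Cbs* and *Cth* did not pass the filter on low counts. Of 7 genes of serine, glycine and one-carbon metabolism, 1 was higher and 2 lower, and 4 were lower with the block. The count of 2 fell to 0 with DESeq2 and without PP2Ac KO replicate 2, WT replicate 1 or WT replicate 2, and to 1 with RLE scaling, limma-voom, no filter on low counts or any other library left out. The higher gene was *Mthfd2*, the mitochondrial folate enzyme downstream of serine, which had 65.95, 63.9 and 65.7 CPM in PP2Ac KO and 43.1, 40.9 and 45.5 CPM in WT, a log2 fold change of 0.59 (adjusted p = 1.56e-04). *Shmt1*, with 14 to 30 counts, fell by 0.74 (adjusted p = 0.0394) and *Mthfd1l* by 0.26 (adjusted p = 0.0489). *Psph*, which completes serine synthesis after *Psat1*, had -0.08 (adjusted p = 0.612).

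Of 13 tested genes of other amino acid transporters, the SLC7 genes above included, 3 were higher and 4 lower, and 6 were lower with the block. The count of 3 fell to 1 under upper-quartile scaling and without PP2Ac KO replicate 1 or 2 or WT replicate 2 or 3. The lysosomal exporter gene *Slc36a1* fell by 0.62 on the log2 scale (adjusted p = 2.98e-04). *Slc1a4*, for serine and alanine, rose by 0.41 (adjusted p = 0.0463) at 2.31 ± 0.0894 against 1.74 ± 0.111 CPM (SD, n = 3). *Slc43a1* did not pass the filter on low counts.

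Aminoacyl-tRNA synthetases are a large class of ATF4 targets. Of 12 known to be induced by it, 1 was higher and 2 lower (median -0.14 on the log2 scale), and 8 were lower with the block. Of all genes tested, 18.1% were higher and 19.0% lower, and 26.4% were lower with the block. The count of 2 was 7 under upper-quartile scaling, and 1 with RLE scaling, DESeq2 or limma-voom and without PP2Ac KO replicate 1 or 2 or WT replicate 2 or 3. *Iars* fell by 0.44 (adjusted p = 0.00309) and *Yars* by 0.25 (adjusted p = 0.0443). *Wars*, which is also induced by interferon, rose from 58.2 ± 3.01 to 89.3 ± 2.11 CPM, a log2 fold change of 0.62 (adjusted p = 1.39e-04). Of 8 other cytosolic synthetase genes, 3 were higher (*Rars* by 0.44, *Kars* by 0.36 and *Vars* by 0.26 on the log2 scale, with adjusted p = 0.0075, 0.00217 and 0.0133) and none lower, and 1, *Farsb*, was lower with the block (1 gene also under upper-quartile scaling and without PP2Ac KO replicate 3). The difference between these lists was not tested.

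The XBP1 and ATF6 arms of the unfolded protein response, which share *Ddit3* with the ATF4 arm, were tested in 12 genes, of which 2 were higher and 2 lower, and 1 was lower without PP2Ac KO replicate 1 or 2 or WT replicate 2. The chaperone gene *Hspa5* (BiP) rose from 678 ± 77.1 to 962 ± 18.5 CPM, a log2 fold change of 0.51 (adjusted p = 0.00189), and *Xbp1* rose by 0.24 (adjusted p = 0.0101). *Herpud1*, which is induced by ATF4 and ATF6 and acts in degradation from the endoplasmic reticulum, fell by 0.91 (adjusted p = 7.63e-04), and *Dnajb9* by 0.32 (adjusted p = 0.0158). *Hsp90b1*, *Calr*, *Pdia4*, *Sdf2l1* and *Hyou1* had log2 fold changes between -0.02 and 0.06, none past the test.

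**Figure D4:**
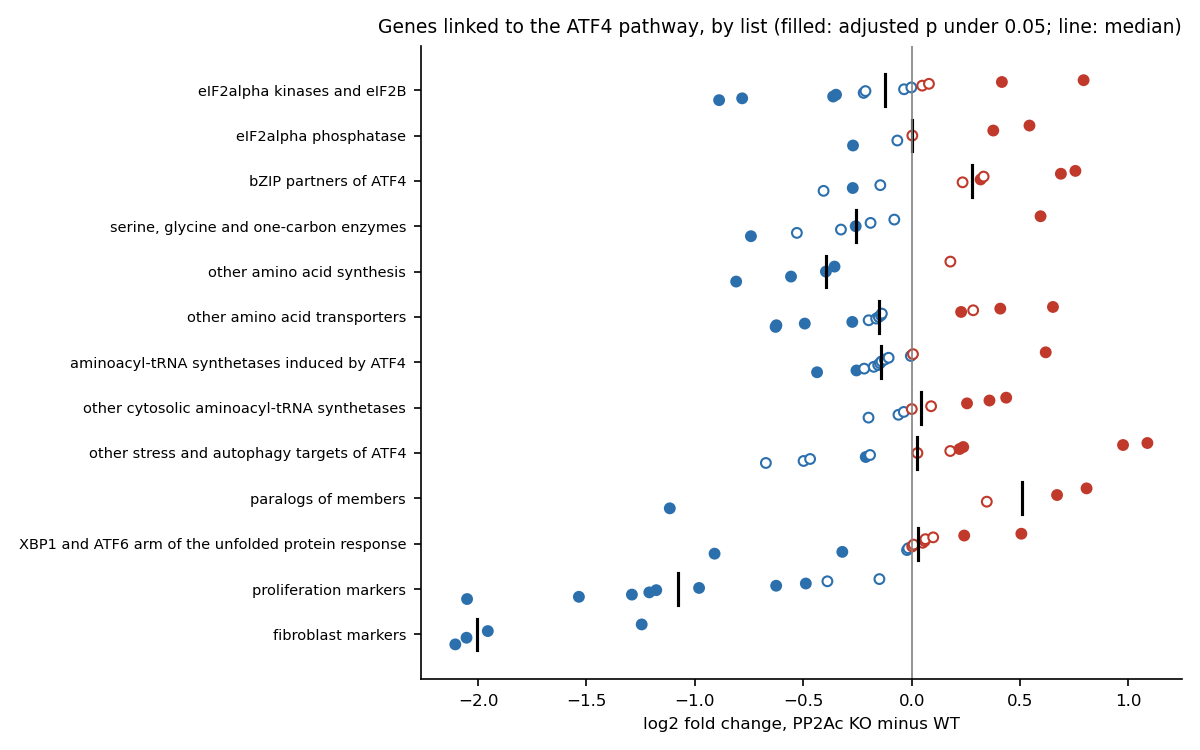
log2 fold change between PP2Ac KO and WT (horizontal axis) of each tested gene in lists linked to the ATF4 pathway and in the proliferation and fibroblast marker lists, filled at an adjusted p under 0.05 and colored by sign, with the median of each list as a black line. The kinase and phosphatase lists spread to both sides of 0, other amino acid synthesis has a median of -0.40, and the fibroblast markers have a median of -2.0.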

How the data were processed

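RNA-Seq of 6 libraries (poly(A) RNA, a strand-specific kit, paired reads of 150 bases) was analysed. The authors deposited raw counts of reads per gene on mm10. The submitters' processing notes name fastp 0.20.0, STAR 2.7.1a and HTSeq 0.11.2, among other tools, without their roles. The annotation release and strand setting are not given in the sources used here. Groups and replicate numbers came from the labels and column names. Nothing in the labels says that libraries of a group came from separate mice or cultures, so p-values measure the spread between these libraries. Libraries of a genotype differed by 9.32 to 45.5 times counting noise (chi-square per degree of freedom), so none was another library sequenced again. Separate libraries made from the same RNA or culture cannot be told apart this way.

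Counts were tested in R 4.3.3 with edgeR 4.0.16 (filterByExpr with a minimum count of 10, TMM, glmQLFit and glmQLFTest, genotype alone) over 13680 genes, with Benjamini-Hochberg adjustment over all of them. Unless another tool is named, adjusted p-values are from this fit. CPM carry the TMM factors, and RPKM use merged exon lengths of GENCODE M21. *Ddit3* is the symbol of 2 genes in that release. Its exon length and RPKM rest on the exons of both, and its coordinates are those of the first. At this depth 3 counts equal 0.0604 to 0.0909 CPM, which covers counting error only. Same-numbered libraries deviated together from their group means (correlations across genes of 0.289, 0.148 and 0.337), so a blocked fit (replicate number as a term) is given beside the ATF4 genes and list counts that it changes. The pairing comes from the numbers alone. Alternatives were RLE and upper-quartile scaling, other filters, the block, DESeq2 1.42.0, limma-voom (limma 3.58.1), single libraries left out and, added later, library totals alone. The genes, lists and tests were chosen with earlier results of these data known. Genes named are the 10 ATF4-response genes, eIF2α kinases and phosphatase subunits, light chains of CD98 and, from each list, up to 3 genes with the largest change in each direction at an adjusted p under 0.05. *Mars*, *Psph*, *Got1*, *Gdf15*, chaperone genes, paralogs, untested genes and some genes past the test only with the block were added with their values known. The fits were tested on simulated data, with changes larger than those of the 10 genes and without an effect of replicate number. That test does not cover differences as small as those of the 10 genes.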

Additional observations from a re-analysis of the deposited data

How the results depend on the processing

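The calls for *Ddit3*, *Psat1* and *Slc7a5* held in each of the 14 alternatives. With the replicate block, 5 of the 10 genes were higher, and the block took away no call among them. With library totals alone, 1503 genes were higher and 6125 lower, 4 of the 10 were lower (*Trib3* and *Asns* were added, at -0.43 and -0.56), *Sesn2* lost its call, and *Slc3a2* changed sign to -0.073. Small rises in the other lists also shrank, with *Xbp1* at 0.03, *Bbc3* at 0.02, *Sqstm1* at 0.004 and *Vars* at 0.04 on the log2 scale. That scaling lowers all genes alike, so the share of called genes that were higher went from 48.7% to 19.7%, and upper-quartile scaling took it to 38.4%. With single libraries left out, between 1 and 3 of the 10 were lower, and the log2 fold change of *Chac1* ran from -0.072 to 0.46. *Asns* was under an adjusted p of 0.05 in 5 alternatives and *Atf4* in 5, and *Sesn2* lost its call in 7 and *Phgdh* in 4. *Chac1* had the fewest counts of the 10, at 17 to 47.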

Other observations

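Stress and autophagy genes that are known targets of ATF4 among other factors gave 4 higher and 1 lower of 11 tested, and 4 and 3 with the replicate block. Under upper-quartile scaling and without PP2Ac KO replicate 1 or 2, 2 were higher. None was lower without PP2Ac KO replicate 2 or 3 or WT replicate 2 or 3, and 2 were lower under upper-quartile scaling, both other filters on low counts and without WT replicate 1. *Cdkn1a*, the gene of the cell cycle inhibitor p21, rose from 483 ± 68.8 to 1026 ± 76.9 CPM (SD over n = 3), which is 1.09 on the log2 scale (adjusted p = 1.50e-04 from edgeR). *Nupr1*, which encodes a small stress protein of chromatin, had 12.4, 9.09 and 9.99 CPM in PP2Ac KO and 5.33, 5.15 and 5.58 CPM in WT, a log2 fold change of 0.97 (adjusted p = 4.17e-04 from edgeR). The BH3-only gene *Bbc3* rose by 0.24 (adjusted p = 0.0353 from edgeR), and the autophagy receptor gene *Sqstm1*, at 874 against 750 CPM, is the remaining higher gene. *Map1lc3b* fell by 0.21 (adjusted p = 0.0350 from edgeR). *Ddit4* and *Gdf15* had log2 fold changes of -0.47 and 0.18 (adjusted p = 0.171 and 0.268 from edgeR, and 0.0234 and 0.147 with the block). *Fgf21* had no count in any library, and *Stc2* and *Adm2* did not pass the filter on low counts.

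Within each genotype, the libraries numbered 3 often ranked highest in these genes, at times by a small margin (*Psat1* in PP2Ac KO, 14.1 against 13.8 CPM). For 6 of the 10 ATF4-response genes (*Atf4*, *Trib3*, *Chac1*, *Asns*, *Psat1* and *Phgdh*), library 3 was the highest of its genotype in both PP2Ac KO and WT, as it was for 17.4% of all genes tested. *Slc7a5* and *Slc3a2* were lowest there in both, as were 20.0% of all genes tested. *Ddit3* and *Sesn2* were neither highest nor lowest there in both. Of the 12 synthetase genes known to be induced by ATF4, 8 had library 3 highest in both genotypes, against 2 of the 8 other cytosolic synthetase genes. The 4 fibroblast markers were lowest there in both. This was seen in the data and not tested, and what the numbers share is not stated in the labels.

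Over the 6 libraries, the genes whose log2 CPM were most like those of *Atf4* were *Sfn*, *Tango2* and *Pgd*, with Pearson correlations of 0.997, 0.995 and 0.994. Those most like *Ddit3* were *Xbp1*, *Ctsh* and *Nudt19*, with 0.997, 0.995 and 0.995. These correlations describe 6 points in 2 genotypes, and 466 genes had a correlation over 0.95 with *Ddit3*, against 21 with *Atf4*.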
